A study of Mus musculus with 400 samples.

Results

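The genes described here are 9 transcription factor genes that are known to set and keep the identity of the intestinal epithelium: Cdx1, Cdx2, Hnf4a, Hnf4g, Gata4, Gata6, Klf4, Klf5 and Elf3. They were taken as a named list, with no limit on their values, and all 9 were found among the 33496 gene rows of the count table. Their counts were read in the 380 of 400 single cells that had at least 10000 counts. All cells were sorted as Lgr5-high, that is, with a strong signal of the fluorescent protein carried at Lgr5, the gene of a Wnt-enhancing receptor that marks crypt base stem cells. The donors were Lgr5 GFP/+ mice (Lgr5::EGFP-IRES-Cre-ERT2, with the reporter at 1 Lgr5 allele), and the crypts came from duodenum and jejunum. The protocol texts also mention tamoxifen for lineage tracing and Cyp1a1::H2B-YFP mice for label retention, and no label ties either to the cells of this table.

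All cells form 1 group, and no animal is named for any of them, so the group is 1 sample and no test between groups or genes was made. The titles place the cells in 10 library sets of 40, and the same 40 barcode numbers recur in every set. A standard deviation (SD) over library sets is the spread given below, and it is technical in part. Kept cells had 10766 to 70133 counts, with a median of 32112, and a library set kept 36 to 39 of them. All 8 epithelial markers, Epcam and Krt8 among them, were found in 90% of kept cells or more, as were 11 of 14 stem cell genes, Lgr5 included. The markers of other cells that the sort should lack were not all low: 6 stromal genes were found in 2.89% to 18.2% of cells, 5 endothelial genes in 10.5% to 44.5%, 7 immune genes in 1 cell (Cd8a) to 361 cells (Cd74), 8 enteroendocrine genes in 2.63% to 13.7%, 8 tuft cell genes in 1.84% to 85.5%, 10 goblet cell genes in 7.11% to 95.3% and 10 Paneth cell genes in 27.1% to 100%.

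CDX proteins are homeobox factors that give the posterior gut epithelium its intestinal character. HNF4 proteins are nuclear receptors that act with them on genes of absorption and lipid handling. Of the GATA factors, GATA4 is the one known for the regional character of the upper small intestine. KLF5 is known for crypt proliferation and KLF4 for exit from the cycle and goblet cell maturation, while ELF3 is an ETS factor of epithelia.

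Of the 9 genes, 4 were found in 90% of cells or more, against 5.22% of all gene rows, and 7 in 50% or more, against 22.3% of all rows. These were Hnf4a, Klf5, Elf3 and Cdx1 for the higher limit, joined by Gata4, Hnf4g and Gata6 for the lower. Klf4 and Cdx2 were found in under 50% of cells. The genes of the list are ones the intestine is known to use, which bears on any reading against all rows. A single cell had a count of 4 to 9 of the genes, with a median of 7. All 9 were found together in 45 cells (11.8%), and 7 or more in 315 cells (82.9%). When every cell was reduced at random to 19169 counts, which 342 cells reached, 69.6% of cells had 7 or more and 4.68% had all 9.

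**Figure D1:**
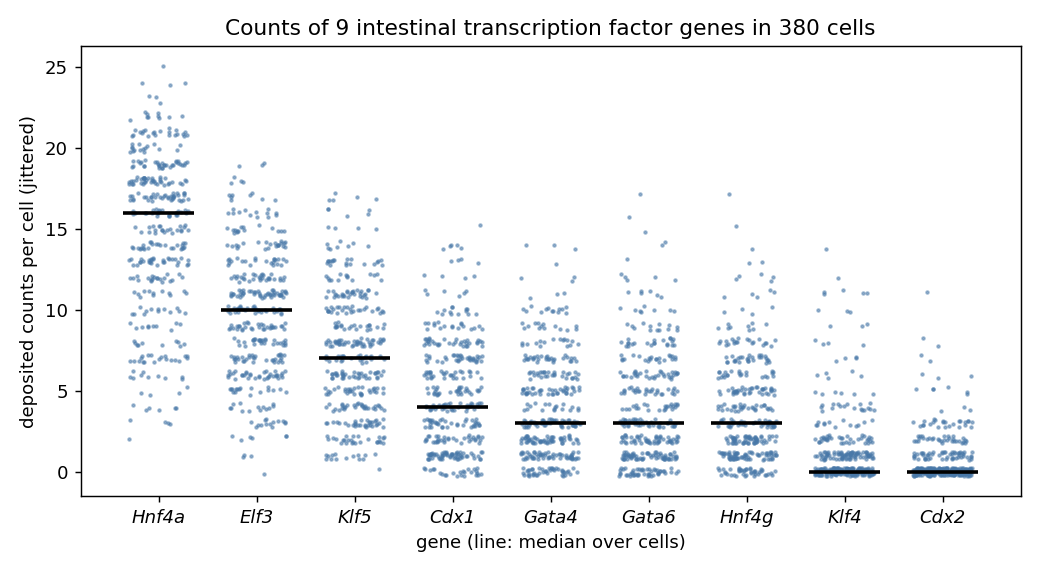
Deposited counts per cell (y axis, jittered) of each gene (x axis) in 380 cells, 1 point per cell, with the median as a line. Medians run from 16 for Hnf4a to 0 for Klf4 and Cdx2.

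The 2 caudal homeobox genes were far apart in level. Cdx1 (ENSMUSG00000024619.8, GRCm38 chromosome 18, 61018862 to 61036199, minus strand) had a count in 355 cells, or 93.4% (95% exact Clopper-Pearson interval 90.4 to 95.7, counting error only, as for every interval here). Its count per cell ran from 0 to 15, with a median of 4 and quartiles of 2 and 7. Cdx2 (ENSMUSG00000029646.3, chromosome 5, 147300805 to 147307270, minus strand) had a count in 128 cells, or 33.7% (28.9 to 38.7). So Cdx1 was spread over nearly the whole population, while 252 cells gave no count of Cdx2, whose highest count in a cell was 11. At the common depth of 19169 counts the shares were 87.7% for Cdx1 and 27.5% for Cdx2.

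In CPM, a cell's counts scaled to a fixed total, the library sets put Cdx1 at 117 at the lowest, 143 at the median and 174 at the highest, with a mean over cells of 145 (SD over sets 22.1). The sets put Cdx2 at 16.2, 21.1 and 47.1, with a mean over cells of 23.5 CPM (SD 8.89). The 2 ranges did not overlap. The highest Cdx2 value was that of set 8, in which 18 of 37 cells (48.6%) had a count and 4 cells had 5 counts or more. The other 9 sets lay between 16.2 and 26.2 CPM. Without its top cell, set 8 was still at 40.6 CPM, and its median total of 31801 counts lay within the range of the sets, 29070 to 37769. Without set 8, Cdx2 was found in 32.1% of cells.

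Per kilobase of merged exons, Cdx1 stood at 82.9 CPM and Cdx2 at 10.4 CPM, so Cdx1 was 7.96-fold higher. The log2 ratio of Cdx2 over Cdx1 was −2.99 (SD over sets 0.48), was below 0 in 10 of 10 sets, and was −3.18 without set 8. Without the length term Cdx1 was 6.16-fold higher. Within single cells, the Cdx1 count exceeded the Cdx2 count in 328 of 380 cells, and the reverse was seen in 25. At the common depth, 81 of the 300 cells with Cdx1 had a Cdx2 count, and so did a somewhat larger share of the cells without Cdx1, 13 of 42. This difference was not tested.

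Hnf4a had the higher level of the HNF4 genes on both scales. Hnf4a (ENSMUSG00000017950.16, chromosome 2, 163506808 to 163572910, plus strand) encodes the HNF4 receptor shared by gut and liver, and was the only one of the 9 with a count in every cell, 380 of 380 (99.0 to 100). Its lowest count was 2, its median 16 and its highest 25, and by mean count it ranked at 119 of 33496 rows. Hnf4g (ENSMUSG00000017688.14, chromosome 3, 3508030 to 3658052, plus strand), its intestine-enriched relative, had a count in 336 cells, or 88.4% (84.8 to 91.5), with a median of 3 and a highest count of 17.

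The library sets placed Hnf4a at 414 to 520 CPM, with a median of 463 (mean 467, SD 38.4), and Hnf4g at 94.6 to 139 CPM, with a median of 121 (mean 120, SD 14.1). The lowest set for Hnf4a was well above the highest set for Hnf4g. Per kilobase of exons the levels were 96.8 and 45.5 CPM, a log2 ratio of 1.09 (SD 0.24) that was above 0 in 10 of 10 sets. Without length the log2 ratio was 1.97. The table's highest count for any gene was 36, so large counts may be compressed, which the sources used here do not state. Mapping the counts back as if 37 labels had been shared out at random gave Hnf4a a mean of 539 CPM and the ratio a value of 1.34. The number 37 was assumed, as 1 more than the highest count, and is not stated for the assay. Hnf4a had more counts than Hnf4g in 367 cells and fewer in 8.

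Gata4 and Gata6, zinc-finger factors of the foregut and midgut lining, were found at nearly the same share. Gata4 (ENSMUSG00000021944.15, chromosome 14, 63198922 to 63271692, minus strand) had a count in 337 cells, or 88.7% (85.1 to 91.7), and Gata6 (ENSMUSG00000005836.8, chromosome 18, 11052064 to 11085635, plus strand) in 330 cells, or 86.8% (83.0 to 90.1). Both had a median of 3 counts, and their highest counts were 14 and 17. An exon of Gata6 overlaps one of the antisense gene 1010001N08Rik, and no use of strand is stated, so counts from the pair cannot be told apart.

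Gata4 lay at 93.9, 127 and 149 CPM in the lowest, median and highest set (mean 124, SD 19.3). For Gata6 the same values were 82.1, 115 and 182 CPM (mean 120, SD 29.8). These ranges overlap almost fully, and the log2 ratio of Gata4 over Gata6 without length was 0.041, above 0 in 6 of 10 sets. Per kilobase of merged exons the ratio was 0.78 (SD 0.44, above 0 in 10 sets), since the annotated exons of Gata6 add up to 6508 bases against 3904 for Gata4. With the longest single transcript as length it was 0.20, within the SD. Whether Gata4 was the more abundant of the 2 therefore depended on the length taken. The count was higher for Gata4 in 177 cells, higher for Gata6 in 159 and equal in 44, and 294 cells had both. At the common depth Gata4 was found in 79.9% of cells with Gata6 and in 84.9% of the 73 cells without it.

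The 2 Krüppel-like genes differed in level. Klf5 (ENSMUSG00000005148.7, chromosome 14, 99298691 to 99315036, plus strand) had a count in 379 of 380 cells (99.7%), with a median of 7 and a highest count of 17. Klf4 (ENSMUSG00000003032.8, chromosome 4, 55527143 to 55532466, minus strand) had a count in 183 cells, or 48.2% (43.0 to 53.3), with a median of 0 and a highest count of 14. It had 5 counts or more in 8.42% of cells, and its share ran from 25.6% to 64.1% between library sets.

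Klf5 lay at 193, 231 and 290 CPM in the lowest, median and highest set (mean 233, SD 26.2), and Klf4 at 22.6, 41.6 and 64.6 CPM (mean 41.3, SD 11.6). Again no set of the lower gene reached a set of the higher one. Per kilobase of exons the log2 ratio of Klf5 over Klf4 was 1.73 (SD 0.42) and above 0 in 10 of 10 sets, and without length it was 2.50. The count of Klf5 was the higher in 355 cells and that of Klf4 in 15. At the common depth, the variance of Klf4 was 2.82 times its mean, while genes of like mean count had a median of 2.05 and quartiles of 1.85 and 2.26. For the other 8 genes this ratio lay between 0.996 for Hnf4a and 2.03 for Cdx2. Klf4 thus lay above the upper quartile of genes of like mean.

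Elf3 (ENSMUSG00000003051.13, chromosome 1, 135253575 to 135258568, minus strand) had a count in 379 cells (99.7%), with a median of 10 and a highest count of 19. Its library sets lay at 272, 313 and 372 CPM at the lowest, median and highest (mean 313, SD 28.7). An exon of Elf3 overlaps one of Gm26642 on the other strand, which leaves the source of counts there uncertain.

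**Figure D2:**
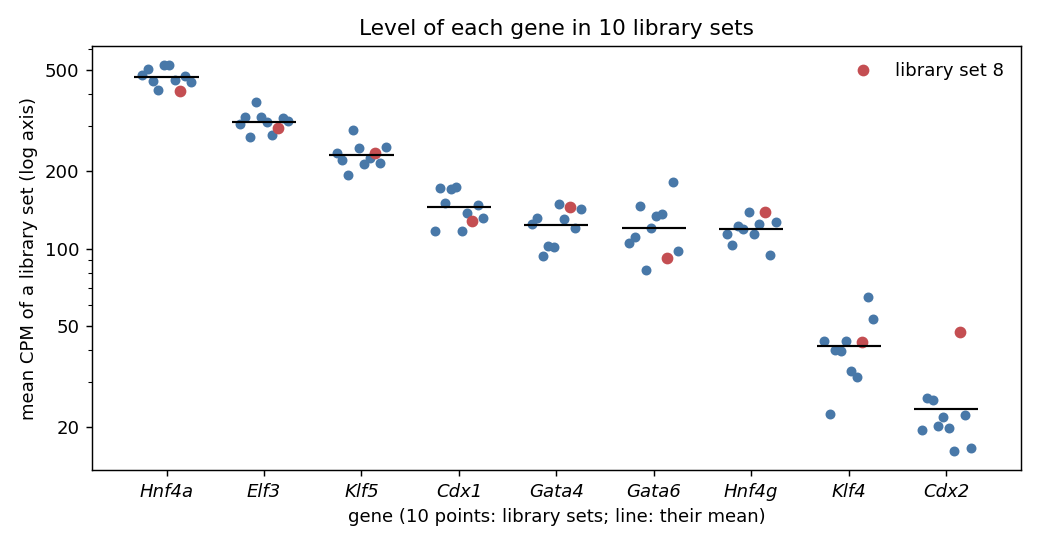
Mean CPM (log axis) of each gene in each of 10 library sets, with the mean of the sets as a line and set 8 in red. Hnf4a lies between 414 and 520 CPM, and Cdx2 lies between 16.2 and 26.2 CPM except in set 8, at 47.1.

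Across the 9 genes, the order of levels per kilobase of merged exons was Elf3 (141 CPM), Hnf4a (96.8), Cdx1 (82.9), Hnf4g (45.5), Klf5 (44.8), Gata4 (31.7), Gata6 (18.5), Klf4 (13.5) and Cdx2 (10.4). In that order, Hnf4a and Cdx1, Hnf4g and Klf5, Gata6 and Klf4, and Klf4 and Cdx2 did not differ beyond the SD of their log2 ratio over sets. Without length the order was Hnf4a, Elf3, Klf5, Cdx1, Gata4, Gata6, Hnf4g, Klf4 and Cdx2, and the neighbours from Cdx1 to Hnf4g did not differ beyond that SD. Elf3 stood above Hnf4a by 0.54 on the log2 scale per kilobase and below it by 0.58 without length, each in 10 of 10 sets. Whether the deposited counts grow with transcript length is not stated, and across 11549 protein-coding genes found in 20% of cells or more the Spearman correlation of mean count with exon length was −0.002, a value across genes that are not independent of each other. Both scales are therefore given. Cdx2 and Klf4 closed the order on either one.

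**Figure D3:**
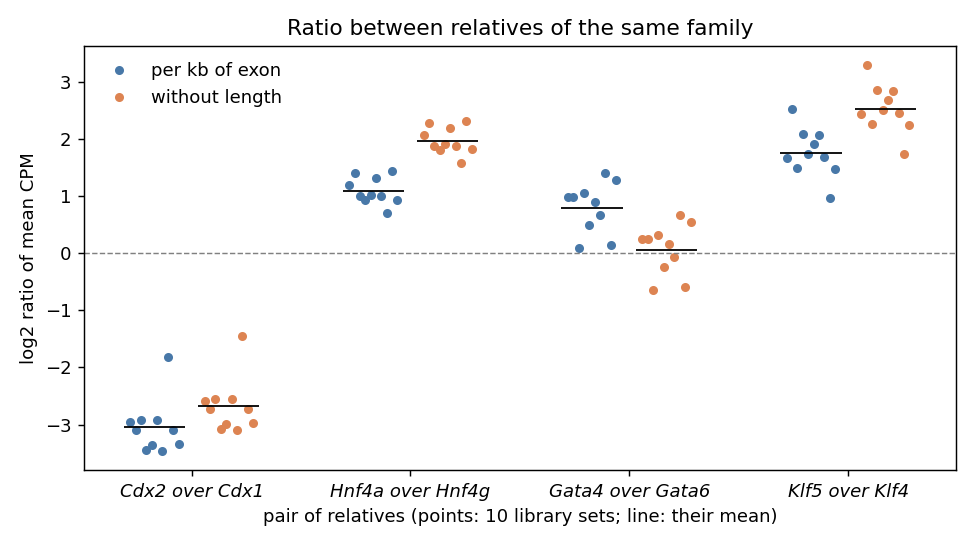
Log2 ratio of mean CPM (y axis) between relatives of 4 families (x axis) in each of 10 library sets, per kilobase of merged exons (blue) and without length (orange), with means as lines. The Cdx2 over Cdx1 points are all below 0 and the Hnf4a over Hnf4g and Klf5 over Klf4 points all above 0 on both scales, while Gata4 over Gata6 straddles 0 without length.

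The 4 pairs of relatives share only short identical runs of sequence. The longest identical run between their annotated transcripts was 16 bases for Cdx1 and Cdx2, 17 for the HNF4 genes, 18 for the GATA genes and 15 for the Krüppel-like genes.

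The low shares of Cdx2 and Klf4 need to be read beside genes known mainly from other organs or other cells. Of 14 transcription factor genes of other organs, 12 had a row, and their median share was 3.55% of cells. At the low end, Hoxb13, a factor of the hindgut and prostate, was found in 1 cell (0.263%). Higher up stood Trp63, a factor of squamous epithelia, in 54.5% of cells (36.8 CPM), and Pdx1, of the pancreas, in 40.8% (30.5 CPM), both named here because they lay above Cdx2. Pdx1 is also known from the duodenum, from which some of the crypts came, so its share cannot stand for that of an unused gene. The Trp63 gene spans 208 kilobases, against 6.47 for Cdx2 and 5.32 for Klf4. Per kilobase of exons Trp63 and Pdx1 lay at 4.38 and 14.1 CPM, beside 10.4 for Cdx2 and 13.5 for Klf4. The endothelial gene Pecam1 was in 44.5% of cells. Given Trp63 and Pecam1, a share of the size seen for Cdx2 or Klf4 is not by itself a sign that a cell uses the gene. The other-organ factors with a span no longer than that of Cdx2, Pdx1 aside, had lower shares. They ran from 0.263% (Hoxb13) to 6.32% of cells (Six2). That span limit was chosen after the values were seen, and the part of span in these shares was not tested. The other 7 genes lay above every gene of the other-organ, stromal and endothelial lists.

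Among 25 relatives of the same families, 3 were in 90% of cells or more and 12 in 50% or more. Ehf, an ETS factor of the same subgroup as Elf3, was the highest at 98.4% (281 CPM), and Cdx4, the third caudal gene, the lowest at 1.58%. The GATA genes of blood, Gata1 and Gata2, were in 8.16% and 3.95% of cells and Gata3 in 15.5%, whereas Gata5, the other GATA gene of the gut, was in 38.7%. Gata4 and Gata6 stood above all 4, which were named after their values were seen. Of 30 other transcription factors of the intestinal epithelium, 7 reached 90% and 22 reached 50% of cells, from Creb3l3, a regulator of lipid genes, at 17.4% to Vdr, the vitamin D receptor, at 100%.

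Genes that HNF4 and CDX factors are known to switch on in enterocytes were split. Of 24 such genes, 6 were in at least 90% of cells and 13 in at least 50%. Cps1, a urea cycle enzyme, was in 100%, and Alpi, the alkaline phosphatase of mature enterocytes, in 4.74%. Of 12 HNF4 targets of fatty acid oxidation, 2 reached 90% and 11 reached 50%, and the lowest was Pdk4, a kinase that holds back glucose oxidation, at 18.2%. The score of the enterocyte genes used 23 of the 24, since Alpi was in under 5% of cells. It reached a Spearman correlation of 0.2 with none of the 9, and the highest was 0.12, for Klf5.

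**Figure D4:**
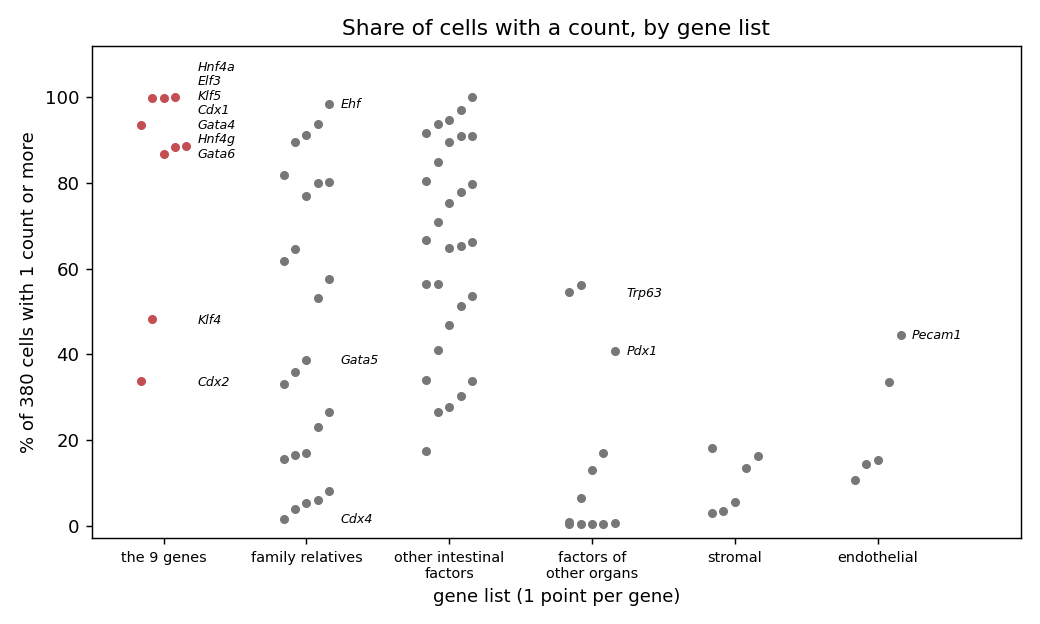
Share of 380 cells with 1 count or more (y axis) for each gene of 6 lists (x axis), 1 point per gene. Of the 9 genes in red, 7 lie above 80%, while Klf4 (48.2%) and Cdx2 (33.7%) lie among the higher points of the factors of other organs.

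Correlations across cells between the 9 genes were small. At the common depth, 0 of the 36 pairs had a Spearman correlation of 0.2 or more over 342 cells, the median was 0.01, and 22 pairs were above 0. Of all combinations of one of the 9 genes with another gene of the table, 0.482% reached 0.2, so a count of 0 among 36 pairs is near that background. The highest pair was Klf5 and Elf3 at 0.12, with −0.02 to 0.15 over 20 other random reductions of the same cells. The lowest was Hnf4a and Hnf4g at −0.15, with −0.20 to −0.03 over those draws and a value above 0 in 2 of 10 sets, and at full depth it was −0.17. Hnf4a and Elf3 stood at 0.10 (draws 0.02 to 0.21, above 0 in 5 of 10 sets) and at 0.22 at full depth, the only pair past 0.2 in size there. Cells of a set share a library, and values under 0.2 in size are given as values only. At the common depth the median count was 0 for Cdx2 and Klf4, 2 for Hnf4g, Gata4 and Gata6, and 3 for Cdx1. The part of such low counts in the small correlations was not tested.

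Hnf4a, Cdx1 and Elf3 moved with a general property of the cell, the number of genes found in it at equal depth. That number, with the 9 genes left out, ran from 5689 to 9892 over cells. Its Spearman correlation was −0.42 with Hnf4a (draws −0.48 to −0.39, below 0 in 10 of 10 sets), −0.24 with Cdx1 and −0.22 with Elf3, values that 8.94% of 13461 genes reached in the same direction at a limit of −0.2. For Hnf4g it was 0.19. A related measure was the share of a cell's counts that came from the other genes spanning 100 kilobases or more, which ran from 10.7% to 34.2%. It correlated at −0.34 with Hnf4a and −0.33 with Cdx1 (13.7% of genes reached −0.2), and at 0.22 with Hnf4g in 10 of 10 sets (24.2% reached 0.2). Hnf4g is itself the longest of the 9 genes, at 150 kilobases. Gata4, at 72.8 kilobases, gave 0.05, and Hnf4a, at −0.34, spans 66.1 kilobases. The part of a gene's own span in these values was not tested. Given the number of genes in the cell, the correlation of Hnf4a with Hnf4g was −0.08, and the 36 pairs lay between −0.09 and 0.14. Both measures and this adjustment were chosen after the data were seen.

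Few of the fixed gene lists moved with any of the 9 genes, and the values should be read beside the measures above. The epithelial score reached 0.30 with Hnf4a (draws 0.19 to 0.37, above 0 in 10 of 10 sets), where 3.97% of genes reached 0.2. For Hnf4a the endothelial score and the factors of other organs both gave −0.22, which 6.41% and 5.45% of genes reached in that direction. For Hnf4g the factors of other organs gave 0.21 (16.6% of genes), with 0.07 to 0.20 over other draws. The part of gene number and gene span in these values was not tested.

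In the random reduction used, Cdx1 was the only one of the 9 that reached 0.2 with a score of dividing cells. Its correlation was 0.22 with the genes of G2 and M phase (2.12% of genes reached 0.2) and 0.196, just under that limit, with those of S phase (1.17%), each above 0 in 9 of 10 sets. Over 20 other draws the first ranged from 0.07 to 0.175. The value given first lies above them all, and none of them reached 0.2. Over the same draws the second ranged from 0.12 to 0.21. With the genes of G2 and M phase, these draws went up to 0.16 for Hnf4a and for Cdx2, within the range of Cdx1. With total counts of the cell before reduction, Cdx1 correlated at 0.16, and with the stromal score at −0.208 (0.750% of genes), beyond the −0.207 to −0.056 of the other draws. Its correlation with Lgr5 itself was −0.13, and that of the other 8 genes with Lgr5 lay between −0.06 and 0.10. None of the 9 reached 0.1 with the stem cell score, the highest being Hnf4g at 0.08.

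**Figure D5:**
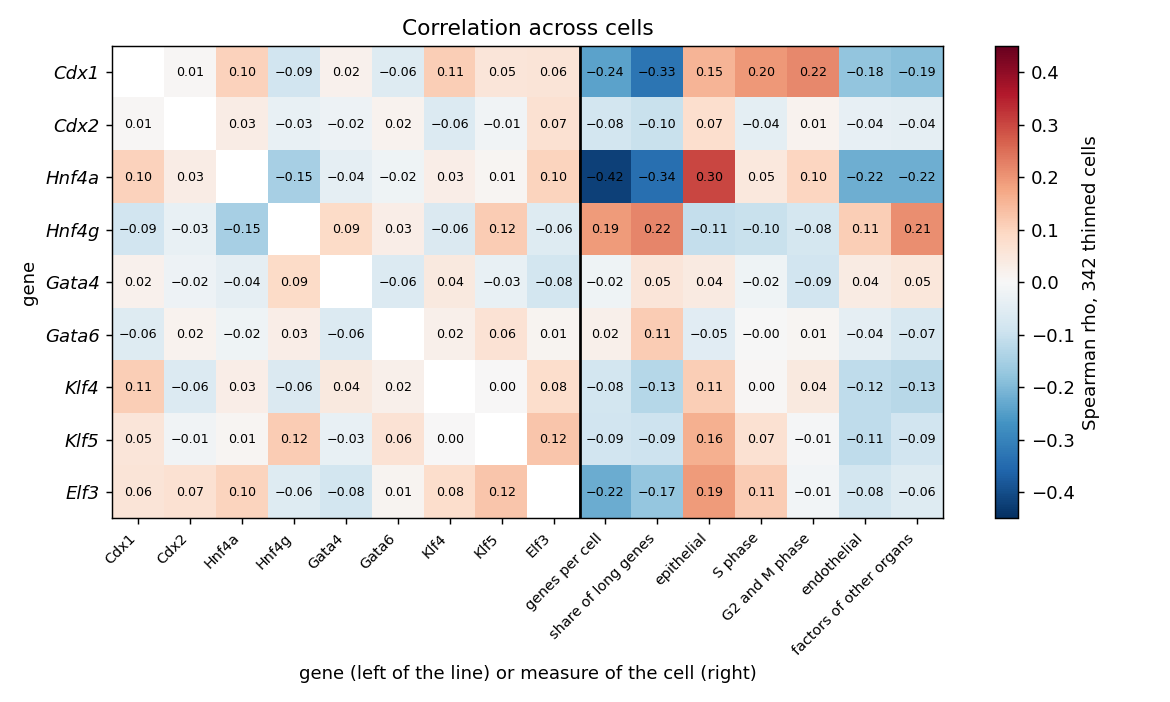
Spearman correlation over 342 cells reduced to equal depth, between the 9 genes (left of the line) and with measures of the cell (right: genes per cell, share of counts from long genes, and 5 list scores). No pair of the 9 reaches 0.2 in size, and the deepest colours are Hnf4a with genes per cell (−0.42) and with the share of long genes (−0.34).

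The genes whose counts followed each of the 9 most closely were picked as the top 5 of 13460 in 1 random reduction, so their values are the high end and the range over 20 other draws is the fairer guide. For Hnf4a they were Gm10073 (0.42, other draws 0.20 to 0.36), Gm14303 (0.39), Gm6204 (0.38), Tecpr2 (0.38) and the ribosomal protein gene Rps4x (0.37, other draws 0.27 to 0.48). For Cdx1 they were Gm3531 (0.33), Rpl9-ps7 (0.31), Gm12350 (0.30), Rpl36a (0.30) and Gm8203 (0.29). In the Cdx1 group, 4 of 5 are annotated as processed pseudogenes, which share sequence with a parent gene, against 7.90% of the 13461 genes tested. So are Gm14303 and Gm6204 of the Hnf4a group and Rpl3-ps1 of the Elf3 group given below. The spans of the Cdx1 group were all under 3 kilobases.

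For Hnf4g the top genes were Spire1 (0.25), Ptprh (0.25), Hdac8 (0.24), Lsm11 (0.23) and Gphn (0.23), and 3 of these, Spire1, Hdac8 and Gphn, span 100 kilobases or more, as do 19.7% of the genes tested. For Elf3 they were Nlrp4e (0.27), Rpl3-ps1 (0.26), Park7 (0.26), Actb (0.24) and Lgals4 (0.24). For Gata6 they were BC005537 (0.27), Ddx41, Bptf, Rc3h1 and Rbm27 (0.20), and for Gata4 Tfe3 (0.20), Rad17, Setd7, Rad23b and Dapk2 (0.18).

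For Klf5 the top genes were Tff3, the goblet cell trefoil factor (0.22, other draws 0.11 to 0.20), Zfp472, Slc35e1, Acaa2 and Wdr26 (0.19). For Klf4 they were Edf1 (0.22), Nfkbia (0.21), Vamp4, Ncdn and Calm2 (0.19), and for Cdx2 Cox6b2, Akr7a5, 2310057M21Rik, Pdcd2l and Rec8, all between 0.19 and 0.20. Counting every gene at 0.2 or more in that 1 reduction gave 342 of 13460 for Hnf4a (2.54%) and 165 for Cdx1 (1.23%). It gave 33 for Elf3 (0.245%), 29 for Hnf4g (0.215%) and 0 to 7 for each of the rest. Hnf4a and Cdx1 also had the largest correlations in size with the number of genes in the cell. The part of that measure in these counts was not tested. The picks were not stable: with CPM at full depth in place of reduced counts, 0 to 2 of the 5 stayed in the top 5 of a gene.

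Mex3a, the RNA-binding protein gene of the series title, gave another division of the cells, and the 9 genes were set out by it too. At the common depth, 30 cells had a Mex3a count and 312 had none, with median totals of 34114.5 and 33120.5 counts. Of the 9 genes, 4 were higher and 5 lower in mean level in cells with Mex3a. Over 13461 genes the median log2 ratio of the 2 classes was −0.02, with quartiles of −0.28 and 0.18, and 6 of the 9 genes lay between these quartiles.

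Hnf4a was at 494 CPM in cells with Mex3a and 463 CPM in the rest, which is a log2 ratio of 0.09 (SD 0.08 over the 6 library sets with 3 or more cells of each class, above 0 in 4 of them). The Gata4 mean was 99.97 and 126 CPM, a log2 ratio of −0.33 (SD 0.57), above 0 in 2 of the 6 sets. The Gata4 ratio was below 0 in 20 of 20 other draws, which changed only the cells taken as having Mex3a. This was not particular to Gata4. The Hnf4g ratio was also below 0 in all 20, and the Hnf4a and Elf3 ratios were above 0 in all 20. Klf4 was at 29.6 and 44.6 CPM, a log2 ratio of −0.57 (SD 2.25), but other draws gave −0.41 to 0.03, so this value lies outside their range. For all of the 9 but Hnf4a, the ratio over pooled cells was smaller in size than its SD over sets. The mean of the set ratios of Hnf4a was 0.06, which is within its SD too. The pooled ratios of the 6 genes not yet given lay between −0.14 and 0.23. Cdx1 was at 137 and 148 CPM, Cdx2 at 29.6 and 25.1 CPM, and Elf3 at 326 and 300.1 CPM.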

How the data were processed

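Cells were Lgr5-high small intestinal epithelial cells captured on a Fluidigm C1 chip, with SMARTer cDNA synthesis, per the labels' protocols. The deposited table holds whole-number counts per gene and cell, used as not normalized. The build, per the submitters' processing notes, is GRCm38.p4. Not given in the sources used here are the aligner, counter, annotation, strand use and molecular identifiers. The genes and lists were chosen with earlier results of these data known. Symbols, positions and exon lengths came from GENCODE M21 (33219 of 33496 identifiers matched). Cells with at least 10000 counts were kept, which left out 20 cells with 4491 to 9841 counts. Doublets were not removed. CPM was computed from all counts of a cell. Cells were thinned without replacement to 19169 counts, the 10th percentile, leaving out 38 shallower cells, and 20 further draws were made. List scores were the mean log2(thinned CPM + 1) of list genes found in 5% of cells or more. All 9 genes, the 5 genes most correlated with each (among genes in 20% of cells or more), and the highest and lowest gene of the lists described were named, except 2 genes that are not reported here. The functions were tested on simulated counts. With 1 sample, no p-value was computed. The alternatives were other depths, cell filters, lengths, count scales, draws and each library set left out. Python 3.11.15, numpy 2.4.6, pandas 2.3.3, scipy 1.17.1 and matplotlib 3.10.9 were used.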

Additional observations from a re-analysis of the deposited data

Results flagged for a closer look

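The mean level of Cdx2 in library set 8 was 47.1 CPM, while the other 9 sets lay between 16.2 and 26.2 CPM. The gap to the next set was 0.68 of the whole range of the 10 sets, beyond Dixon's 95% limit for 10 values. Chance sets apart about 1 group in 20, and the 9 genes gave 9 such groups. No other gene of the 9 had a library set beyond that limit.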

How the results depend on the processing

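The settings that moved a ratio between relatives by more than its SD over library sets were those of length and of the count ceiling. The log2 ratio of Hnf4a over Hnf4g went from 1.09 to 1.97 without length and to 1.34 with counts mapped back through the ceiling. Gata4 over Gata6 went from 0.78 to 0.041 without length and 0.20 with the longest transcript. Klf5 over Klf4 went from 1.73 to 2.50 without length and 2.35 with the longest transcript. In the length settings only the divisor changes. No ratio changed sign under any setting run, and the other 70 values of these 4 ratios stayed within the SD. The number of the 9 genes found in at least 90% of cells was 3 with 2 counts required or at the common depth and 6 in cells with at least 20000 counts, and the number in at least 50% was 7 or 8 throughout. Klf4 was found in 39.2% of the cells reduced to the common depth, and at full depth in 26.3% where 2 counts were required. The number of genes higher in cells with Mex3a was 3 to 6 over other draws. No paired analysis was possible because all cells belong to 1 group. Of the cells with any count, 41.4% had a single count of Cdx2 and 45.4% of Klf4, where depth limits detection.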
